A study of Komagataella pastoris with 15 samples.

Results

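The transcripts of 4 genes of protein folding in the endoplasmic reticulum (ER) and of the unfolded protein response were followed in Pichia pastoris (Komagataella pastoris in the labels), a yeast that can grow on methanol, during fed-batch culture. The 4 genes are HAC1 (PAS_chr1-1_0381), ERO1 (PAS_chr1-1_0011), PDI1 (PAS_chr4_0844) and KAR2 (PAS_chr2-1_0140). They were chosen by locus tag from the 5039 probes of the array, each tag having 1 probe with 3 spots. The array files give the tags alone, and the gene names were assigned for this work.

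The cultures produced recombinant human serum albumin (rhHSA), a secreted protein rich in disulfide bonds. Total RNA was taken from 3 fermentors of 40 L at 5 phases, 1 array per fermentor and phase. The first phase was logarithmic growth, and the second was the end of glycerol feeding, sampled once cells had spent 40 min without a carbon source. Then came cells fully adapted to methanol, the peak of the rhHSA expression rate, and the end of fermentation, by which the amount of rhHSA had decreased to 220 mg/L according to the labels. This is the one phase for which they give an amount, so how much product was made in the other phases is not known here. None of the 15 arrays is labelled as a culture without the product. The strain, its promoter and its copy number are not given in the sources used here.

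In yeasts, Kar2 (BiP) is the Hsp70 chaperone of the ER lumen, which binds entering chains and helps them fold. Pdi1 forms and rearranges disulfide bonds in secretory proteins, and Ero1 is the oxidase that recharges Pdi1. Hac1 is the transcription factor of the unfolded protein response. In Saccharomyces cerevisiae its message is spliced by Ire1 when unfolded proteins build up, and the protein made from the spliced message raises the transcription of KAR2, PDI1 and ERO1. An array value for HAC1 is a level of transcript, and which form of the message the probe reads was not analysed here.

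Levels are log2 of the background-subtracted signal minus the same array's 75th percentile of it, so a value of 0 lies at that percentile. Probe sequences differ in brightness, so levels are set side by side only within a gene. In RNA from a whole culture, less transcript per cell and fewer cells with the transcript cannot be told apart. There were 2 scans. The first covered 7 arrays, which were the fermentor 1 array in each of the first 4 phases together with the 3 from the last phase. The remaining 8 were on scan 2. Scan was fitted as a block, as set out when the 4 genes were chosen. Over tags, the fitted scan difference spread with an SD of 0.731 log2 units. Arrays 2 and 3 of logarithmic growth differed at p below 0.05 in 2.04% of probes, which is less than spot noise alone gives. They were counted as 1 sample in means, so n = 2 there. The limma tests kept them as 2 arrays except where averaging is stated. All 3 arrays labelled as the rhHSA peak correlated best, within their scan, with logarithmic growth (r from 0.968 to 0.977 across probes, against 0.913 to 0.919 with methanol adaptation). Whether they hold the phase their label names was not tested, and each value for that phase is that of the arrays so labelled. None of the 180 spots of the 4 genes was saturated or failed to stand well above background. Spots flagged as non-uniform or as outliers were left out, which removed 16 of 45 for KAR2, 10 for PDI1, 8 for ERO1 and 0 for HAC1, nearly all on scan 2.

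HAC1, the transcription factor, was high in starved and in methanol-grown cells and low in the other 3 phases. In logarithmic growth its level was -4.56, -3.91 and -3.85 in fermentors 1, 2 and 3. At the end of glycerol feeding it was -3.22, -2.63 and -2.60. After methanol adaptation it was -2.93, -2.05 and -2.33. These 6 arrays of starved and methanol-grown cells all lay above the other 9. The arrays labelled rhHSA peak had -4.61, -3.83 and -3.99, and the end of fermentation had -4.49, -4.47 and -4.41. Logarithmic growth, the labelled peak and the end of fermentation overlapped over all arrays. On scan 1 the end of fermentation lay above the single array of each of the other phases in this group, and below their scan 2 arrays. The means were -4.22 ± 0.48 (SD, n = 2), -2.81 ± 0.35 (SD, n = 3), -2.44 ± 0.45 (SD, n = 3), -4.14 ± 0.41 (SD, n = 3) and -4.46 ± 0.038 (SD, n = 3) in the order of the phases. The SDs of the first 4 phases hold the difference between scans, since HAC1 lay 0.68 higher on scan 2 than on scan 1. In each of the first 4 phases the array of fermentor 1, on scan 1, was the lowest.

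**Figure D1:**
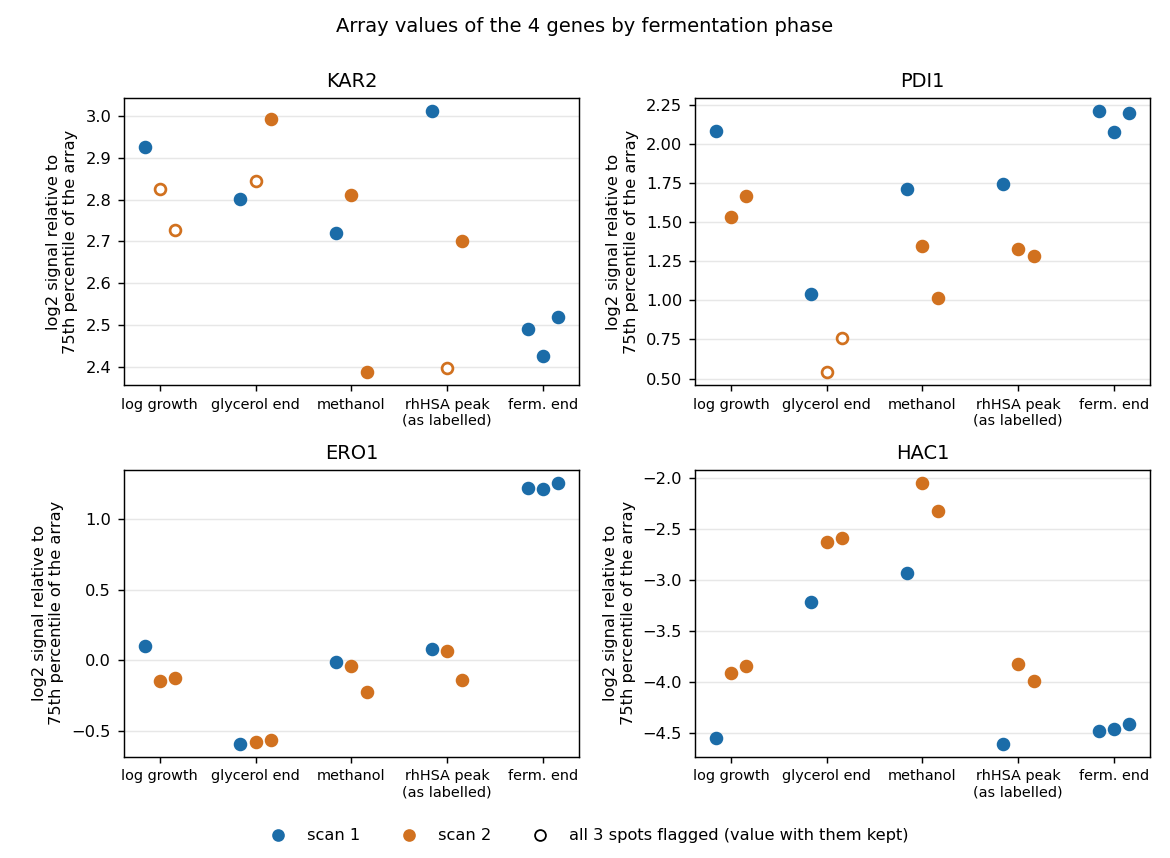
Log2 signal of each gene minus the array's 75th percentile (vertical axis) on each of the 15 arrays, by phase (horizontal axis, fermentors 1 to 3 from left to right), with scan 1 in blue and scan 2 in orange. Open points are arrays on which all 3 spots were flagged, shown with those spots kept. HAC1 is high at the end of glycerol feeding and on methanol, and ERO1 is highest in the 3 arrays of the end of fermentation, at 1.21 to 1.26.

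With scan as a block, HAC1 rose 2.45-fold from logarithmic growth to the end of glycerol feeding, a log2 change of 1.29 ± 0.073 (SE; limma adjusted p = 1.36e-08). The change was 1.34 on scan 1 and 1.27 on scan 2. With logarithmic growth arrays 2 and 3 averaged it was 1.29 ± 0.086 (SE; limma adjusted p = 2.60e-07). HAC1 rose further on methanol, by 0.38 ± 0.073 (SE; limma adjusted p = 0.000736), with methanol arrays above starved ones within each scan. This smaller step did not pass without a scan term, where the same 0.38 had a limma adjusted p of 0.361, with fermentor in place of scan as a replicate block (adjusted p = 0.0523), or with another background correction (0.33, adjusted p = 0.180). Methanol-grown cells stood 3.18-fold above logarithmic growth, at 1.67 ± 0.073 (SE; limma adjusted p = 7.54e-10). From methanol adaptation to the arrays labelled rhHSA peak HAC1 fell 3.27-fold, a change of -1.71 ± 0.073 (SE; limma adjusted p = 8.70e-10), and within scans 1 and 2 the change was -1.68 and -1.72. Few tags fell as far at that step, 2.89% of those tested. At the first and second steps 4.98% and 17.6% rose at least as far as HAC1.

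The labelled peak and logarithmic growth did not differ beyond their spread for HAC1, at -0.037 with a 95% interval from -0.20 to 0.12 (limma adjusted p = 0.688). The end of fermentation lay below methanol adaptation by 2.96-fold and below the end of glycerol feeding by 2.28-fold. Against the labelled peak its change was 0.14 ± 0.081 (SE; limma adjusted p = 0.131), and against logarithmic growth 0.10 ± 0.081 (SE; limma adjusted p = 0.264). The size of these 2 small differences depended on the scaling, and their direction on the scan term. With quantile normalization the end of fermentation lay 0.64 above the labelled peak (adjusted p = 0.00123) and 0.69 above logarithmic growth (adjusted p = 0.000772). With the authors' processed values it lay 0.72 (adjusted p = 0.000125) and 0.79 (adjusted p = 6.34e-05) above them. Without a scan term the differences were -0.31 (adjusted p = 0.357) and -0.35 (adjusted p = 0.306), and with fermentor as a replicate block in place of scan, where they were the same in size, the adjusted p was 0.0716 and 0.0489. With another background correction the difference from the labelled peak was -0.023 (adjusted p = 0.931). The median change of all tags at the last step was itself -0.22 and moved to -0.057 with quantile normalization and to 0.0040 in the authors' values. Relative to that median HAC1 was higher at the end of fermentation by 0.36, by 0.70 with quantile normalization and by 0.72 in the authors' values. Its fitted levels ran from methanol adaptation through the end of glycerol feeding, the end of fermentation and logarithmic growth down to the labelled peak, and the last 3 did not differ from one another beyond their spread in this fit.

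ERO1, the oxidase, was highest at the end of fermentation and lowest after glycerol starvation. Its level at the end of fermentation was 1.22, 1.21 and 1.26 in fermentors 1, 2 and 3. At the end of glycerol feeding it was -0.59, -0.58 and -0.56. Both phases stood apart from all other arrays, which lay between -0.22 and 0.10. Logarithmic growth had 0.10, -0.14 and -0.13, methanol adaptation -0.0091, -0.036 and -0.22, and the labelled peak 0.080, 0.070 and -0.14. These 3 phases overlapped. The means in phase order were -0.018 ± 0.17 (SD, n = 2), -0.58 ± 0.014 (SD, n = 3), -0.089 ± 0.12 (SD, n = 3), 0.0038 ± 0.12 (SD, n = 3) and 1.23 ± 0.024 (SD, n = 3). Scan 2 lay 0.11 below scan 1 for this gene, a fitted difference of -0.11.

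ERO1 changed by -0.52 ± 0.072 (SE; limma adjusted p = 3.94e-05) from logarithmic growth to the end of glycerol feeding, which is 1.43-fold lower. With logarithmic growth arrays 2 and 3 averaged the change was -0.54 ± 0.085 (SE; limma adjusted p = 0.000190). ERO1 rose 1.40-fold on methanol, by 0.49 ± 0.072 (SE; limma adjusted p = 0.000108), and within scans 1 and 2 the rise was 0.58 and 0.44. Methanol adaptation was back within the spread of logarithmic growth, at -0.032 with a 95% interval from -0.19 to 0.13 (limma adjusted p = 0.695). The step to the labelled peak was 0.093 ± 0.072 (SE; limma adjusted p = 0.263). The last step was the largest for this gene, a 2.22-fold rise of 1.15 ± 0.081 (SE; limma adjusted p = 6.51e-08), and on scan 1 alone it was 1.15. The end of fermentation also stood 2.31-fold above logarithmic growth, 2.37-fold above methanol adaptation and 3.32-fold above the end of glycerol feeding. Relative to the median change of all tags the last step was 1.37. Of tags tested, 9.93% rose at least as far at that step. At the first step 24.7% fell at least as far as ERO1, and at the second 12.8% rose as far. All 3 arrays of the end of fermentation were on scan 1, and they were close to one another (7.63% to 12.1% of probes differing at p below 0.05), so the small SD there may hold little spread between cultures. Arrays 2 and 3 of the end of glycerol feeding were also close (8.31% of probes). The small SD of ERO1 in that phase may likewise hold little spread between cultures.

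PDI1, the disulfide isomerase, fell at the end of glycerol feeding and recovered in part on methanol. In logarithmic growth its level was 2.08, 1.53 and 1.66 in fermentors 1, 2 and 3. At the end of glycerol feeding it was 1.04 in fermentor 1, and in fermentors 2 and 3, where all spots were flagged, 0.54 and 0.76 with those spots kept. The starved value was the lowest on scan 1, and the flagged pair was the lowest on scan 2. Methanol adaptation had 1.71, 1.35 and 1.02, and the labelled peak 1.74, 1.33 and 1.28. The end of fermentation had 2.21, 2.08 and 2.20, above both of these phases and level with the single scan 1 array of logarithmic growth. On scan 2 PDI1 lay lower, by a fitted difference of -0.48, so the phases are separated more clearly within a scan than over all arrays. The means in phase order were 1.84 ± 0.34 (SD, n = 2), 1.04 (1 array), 1.36 ± 0.35 (SD, n = 3), 1.45 ± 0.25 (SD, n = 3) and 2.16 ± 0.072 (SD, n = 3).

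The fall of PDI1 to the end of glycerol feeding was 2.06-fold, a change of -1.04 ± 0.13 (SE; limma adjusted p = 4.38e-05). The fit had only 1 starved array for this gene, and with flagged spots kept on all 3 the change was -0.97 ± 0.085 (SE; limma adjusted p = 6.01e-07). Without a scan term the fall was -0.72 and did not pass (adjusted p = 0.0706). On methanol PDI1 rose 1.56-fold, by 0.64 ± 0.13 (SE; limma adjusted p = 0.00184), and by 0.55 ± 0.085 (SE; limma adjusted p = 0.000140) with flagged spots kept. That rise did not pass without a scan term (0.32, adjusted p = 0.477) or with only the arrays of the 2 phases (0.67, adjusted p = 0.0768). Methanol adaptation stayed below logarithmic growth, at -0.40 ± 0.086 (SE; limma adjusted p = 0.00150), though not without a scan term, where the same difference had an adjusted p of 0.126. The labelled peak was also below logarithmic growth, at -0.31 ± 0.086 (SE; limma adjusted p = 0.0113). This last difference did not pass in 6 of 31 alternatives. These were no scan term (-0.31, adjusted p = 0.348), the same with flagged spots kept (-0.28, adjusted p = 0.391), fermentor in place of scan as a replicate block (adjusted p = 0.0943), median centring (-0.24, adjusted p = 0.0751), scan 2 alone (-0.29, adjusted p = 0.148) and all near-identical arrays averaged (-0.31, adjusted p = 0.0740).

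PDI1 did not differ beyond its spread between methanol adaptation and the labelled peak, at 0.094 with a 95% interval from -0.098 to 0.29 (limma adjusted p = 0.340). It rose 1.31-fold at the last step, by 0.39 ± 0.099 (SE; limma adjusted p = 0.00476). With all near-identical arrays averaged that rise did not pass (adjusted p = 0.0692). Of tags tested, 27.9% rose at least as far as PDI1 at the last step and 8.1% at the second. At the first step 9.83% fell at least as far, and between methanol and logarithmic growth 38.5% did. The end of fermentation stood 2.17-fold above the end of glycerol feeding and 1.40-fold above methanol adaptation. Against logarithmic growth it was 0.079 with a 95% interval from -0.14 to 0.30 (limma adjusted p = 0.487). With quantile normalization that difference was 0.40 (adjusted p = 0.00116), and with fermentor in place of scan as a replicate block it was 0.40 (adjusted p = 0.0215). In the order of fitted levels, the end of fermentation and logarithmic growth were not told apart, nor were the labelled peak and methanol adaptation, and the end of glycerol feeding was lowest.

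KAR2, the ER chaperone, changed least of the 4 genes over the phases. In logarithmic growth its level was 2.93 in fermentor 1, and 2.82 and 2.73 in fermentors 2 and 3 with flagged spots kept. At the end of glycerol feeding it was 2.80, 2.85 (flagged spots kept) and 2.99. Methanol adaptation had 2.72, 2.81 and 2.39, and the labelled peak 3.01, 2.40 (flagged spots kept) and 2.70. These 4 phases overlapped, but with flagged spots kept throughout methanol fermentor 2 had 2.65, and methanol adaptation then lay below both logarithmic growth and the end of glycerol feeding. The end of fermentation had 2.49, 2.42 and 2.52, which were the lowest values of scan 1, where the other 4 arrays lay between 2.72 and 3.01. Over all arrays they overlapped with single arrays of methanol adaptation and of the labelled peak. The means without flagged spots were 2.93 (1 array), 2.90 ± 0.14 (SD, n = 2), 2.64 ± 0.22 (SD, n = 3), 2.86 ± 0.22 (SD, n = 2) and 2.48 ± 0.048 (SD, n = 3) in phase order.

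**Figure D2:**
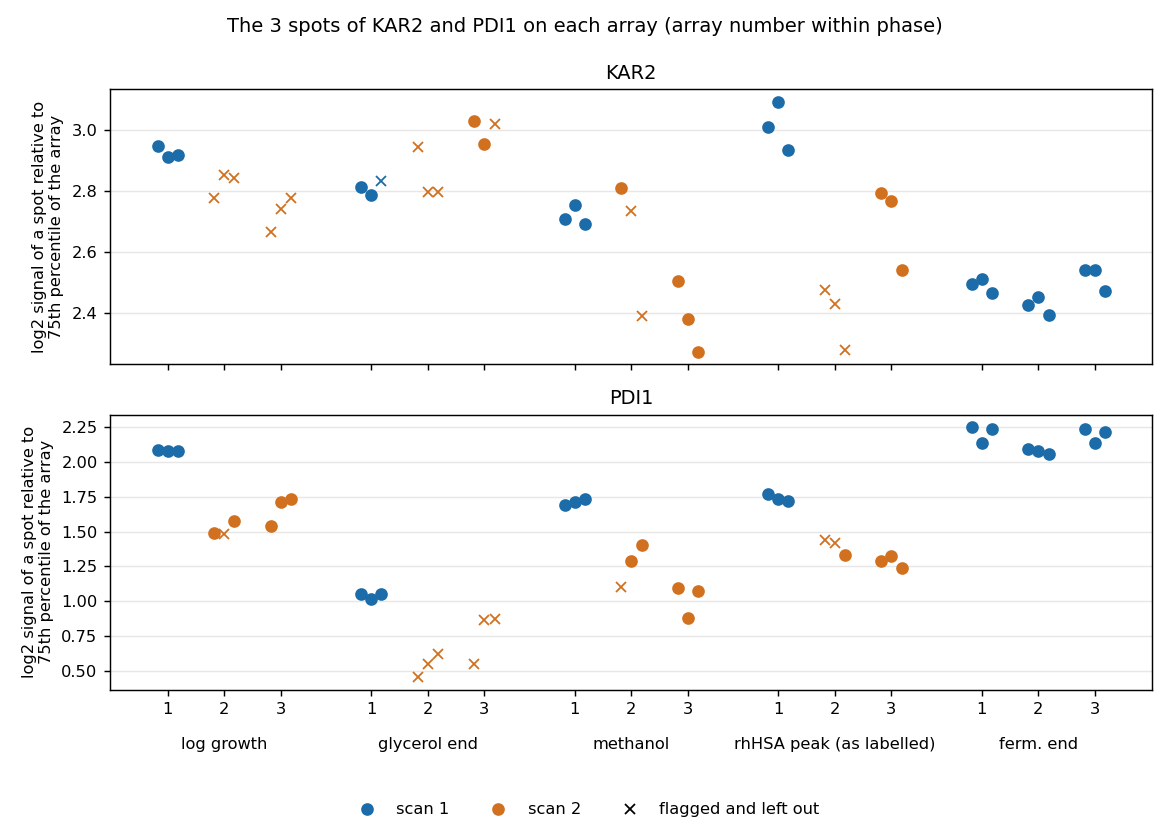
Log2 signal of each of the 3 spots of KAR2 (top) and PDI1 (bottom) minus the array's 75th percentile (vertical axis), by array within phase (horizontal axis), with scan 1 in blue, scan 2 in orange and crosses for spots flagged and left out. Flagged spots lie almost entirely on scan 2, 15 of the 16 for KAR2 and 10 of 10 for PDI1, and the 6 flagged spots of PDI1 at the end of glycerol feeding lie between 0.45 and 0.87.

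Over the 5 phases the fitted range of KAR2 was 0.46 log2 units, or 1.38-fold, and did not pass the test (limma F-test, adjusted p = 0.0667). It did pass with flagged spots kept (range 0.53, adjusted p = 0.0141). Most tags varied as much, since 96.2% of those tested had a range at least as large. The changes of KAR2 were 0.013 ± 0.20 (SE; limma adjusted p = 0.958) at the first step, -0.24 ± 0.14 (SE; limma adjusted p = 0.176) at the second and 0.20 ± 0.14 (SE; limma adjusted p = 0.234) at the third. Their 95% intervals were -0.46 to 0.48, -0.58 to 0.093 and -0.13 to 0.54. The fit had 1 array of logarithmic growth for KAR2, so the spread behind its tests against that phase came from the other phases. With flagged spots kept the second step was -0.30 (adjusted p = 0.0407), but the same value had an adjusted p of 0.0517 when logarithmic growth arrays 2 and 3 were averaged and 0.151 without a scan term. Quantile normalization turned the second step to 0.19 (adjusted p = 0.0420) and the first step to -0.26 (adjusted p = 0.0406). Without end of glycerol feeding array 3 the second step was -0.027. Leaving out 1 array moved the third step between 0.058, without array 1 of the labelled peak, and 0.38, without array 3, and it passed in none of these refits.

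At the last step KAR2 changed by -0.42 ± 0.16 (SE; limma adjusted p = 0.0371), 1.34-fold lower at the end of fermentation. The median change of all tags at this step was itself -0.22, and relative to it KAR2 was at -0.20. A fall at least as large was seen in 41.5% of tags tested. The call for KAR2 was not stable. It was lost with fermentor as a replicate block, with the scan block (-0.42, adjusted p = 0.132) and without it (-0.41, adjusted p = 0.0619), with quantile normalization (-0.16, adjusted p = 0.0858), and when array 1 of methanol adaptation (-0.41), array 1 of the labelled peak (-0.21) or any 1 array of the end of fermentation (-0.44 to -0.39) was left out. Without array 1 of the labelled peak the adjusted p was 0.434. Against the end of glycerol feeding KAR2 was lower by 1.38-fold, at -0.46 ± 0.16 (SE; limma adjusted p = 0.0267). That call was lost with fermentor as a replicate block together with scan (adjusted p = 0.108), without a scan term (-0.42, adjusted p = 0.0598), with another background correction (-0.32, adjusted p = 0.168) and with all near-identical arrays averaged (adjusted p = 0.157), and quantile normalization turned the difference to 0.12 (adjusted p = 0.197). It was -0.72 without end of glycerol feeding array 1 and -0.32 without array 3 (adjusted p = 0.121). Against logarithmic growth the change was -0.45 ± 0.18 (SE; limma adjusted p = 0.0536), and -0.47 with flagged spots kept (adjusted p = 0.00676). The median change of all tags between these phases was -0.22, and relative to it KAR2 was at -0.23. In the order of fitted levels KAR2 ran from the end of glycerol feeding through logarithmic growth, the labelled peak and methanol adaptation to the end of fermentation, and no neighbours in that order differed beyond their spread.

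Over the 5 phases the range was 1.71 log2 units for HAC1 (limma F-test, adjusted p = 5.39e-10), 1.73 for ERO1 (adjusted p = 1.20e-08) and 1.12 for PDI1 (adjusted p = 4.21e-05). The F-test called 96% of the 5024 tags tested, so passing it does not set a gene apart. A range as large was seen in 26.3% of tags for HAC1, 25.7% for ERO1 and 58.2% for PDI1.

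Counted by step, 3 of the 4 genes passed at the first step (HAC1 up, PDI1 and ERO1 down), where 72.4% of all tags did. At the second step 3 of 4 rose, against 63.3% of tags that passed in either direction. At the step to the labelled peak 1 of 4 passed, HAC1, against 74.4% of tags. At the last step 3 of 4 passed (ERO1 and PDI1 up, KAR2 down), against 77.4%. Between methanol adaptation and logarithmic growth 2 of 4 passed, HAC1 up and PDI1 down, against 79.4%. These shares are near or below the background. At the step to the labelled peak the median size of change was 0.15 in the 4 genes and 0.58 in all tags, and at the first step it was 0.78 against 0.51. It was 0.43 against 0.38 at the second step and 0.40 against 0.69 at the last. Between methanol adaptation and logarithmic growth it was 0.32 against 0.67. These medians rest on 4 genes and were not tested.

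The remaining pairs of phases share their arrays with the steps above. Of the 4 genes, 1 passed between the labelled peak and logarithmic growth (PDI1), against 57.8% of tags. Between the end of fermentation and logarithmic growth it was again 1, ERO1, against 74.2%, and with flagged spots kept KAR2 as well. Between the labelled peak and the end of glycerol feeding 3 of 4 passed, against 68.5%, with PDI1 higher by 0.73, ERO1 higher by 0.58 and HAC1 lower, at -1.33. The value for PDI1 rests on 1 starved array, and without a scan term it was 0.41 and did not pass (adjusted p = 0.310). The end of fermentation and the end of glycerol feeding differed for 4 of 4, against 75%, with PDI1 and ERO1 higher and KAR2 and HAC1 lower. Between the end of fermentation and methanol adaptation 3 of 4 passed, against 73%, with ERO1 and PDI1 higher and HAC1 lower. With only the arrays of these 2 phases PDI1 did not pass (0.45, adjusted p = 0.0511).

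**Figure D3:**
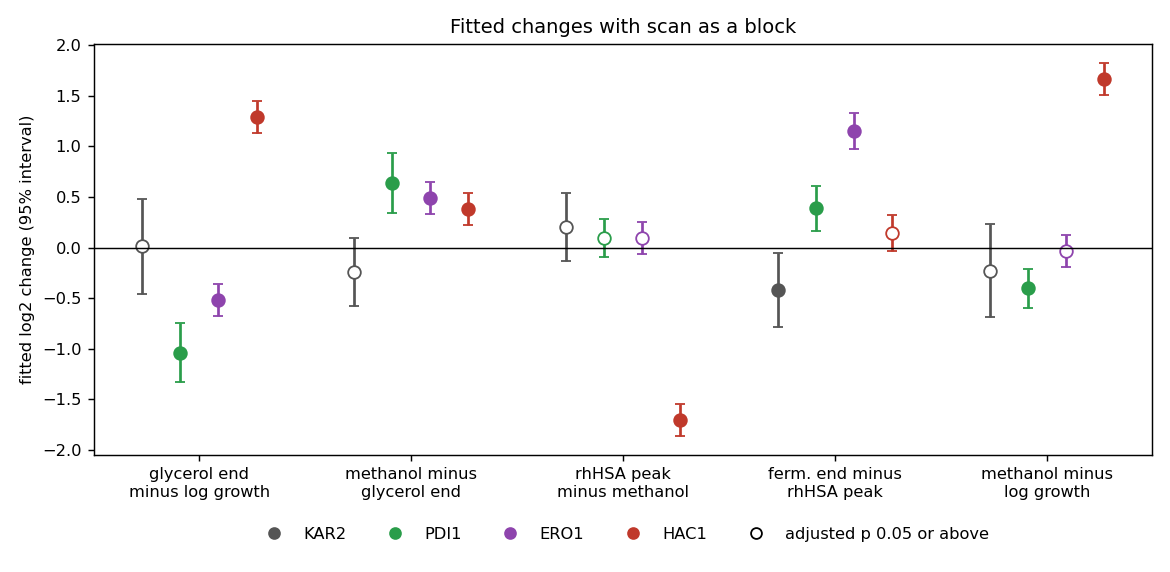
Fitted log2 change of each gene (vertical axis) between pairs of phases (horizontal axis) from the fit with scan as a block, with bars for the 95% interval and open points where the limma adjusted p was 0.05 or above. HAC1 moves against ERO1 and PDI1 at the first step, at 1.29 against -0.52 and -1.04, and falls by 1.71 at the step to the labelled peak, where the other 3 genes lie between 0.093 and 0.20.

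Whether a gene moved by a different amount than KAR2 was tested on the difference of their values on the same array. In this fit 11 arrays had values of both genes for HAC1 and for ERO1, and 10 for PDI1. KAR2 had 1 array of logarithmic growth and PDI1 had 1 starved array, so the tests that involve them take their spread from the other phases, and the first step of PDI1 against KAR2 sets 1 array against 1. With flagged spots kept all 15 arrays had values. Of 15 such differences over the 4 steps and between methanol and logarithmic growth, 11 passed, and the same 11 passed with flagged spots kept. The 15 are not separate results, since all subtract the same KAR2 values. The change between methanol and logarithmic growth is also the sum of the first and second steps. Apart from kept flagged spots, the alternatives were not run on these differences. At the first step the change of HAC1 exceeded that of KAR2 by 1.30 without flagged spots, where 31% of all tags differed from KAR2, and by 1.23 ± 0.16 with them (SE; limma adjusted p = 6.71e-07). It was below that of KAR2 at the third step, at -1.96 ± 0.14 (SE; limma adjusted p = 3.10e-05), where 54.3% of tags differed. Between methanol and logarithmic growth HAC1 exceeded KAR2 by 1.91 without flagged spots, where 46.4% of tags differed, and by 1.91 ± 0.16 with them (SE; limma adjusted p = 3.66e-10). At the last step ERO1 exceeded KAR2 by 1.63 ± 0.14 (SE; limma adjusted p = 3.27e-05) and PDI1 did by 0.88 ± 0.14 (SE; limma adjusted p = 0.00141), where 58% of tags differed. At the first step the changes of PDI1 and ERO1 minus that of KAR2 were -0.91 and -0.64 without flagged spots. With them kept they were -1.03 ± 0.15 (SE; limma adjusted p = 4.88e-06) and -0.58 ± 0.15 (SE; limma adjusted p = 0.00155). At the second step ERO1, PDI1 and HAC1 each exceeded KAR2, by 0.75, 0.68 and 0.60, where 29.7% of tags differed. With flagged spots kept the shares of tags that differed from KAR2 were 60.8%, 47.9%, 64.4% and 65.3% for the 4 steps and 71% for methanol against logarithmic growth. The 4 that did not pass were PDI1 and ERO1 at the third step and between methanol and logarithmic growth.

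**Figure D4:**
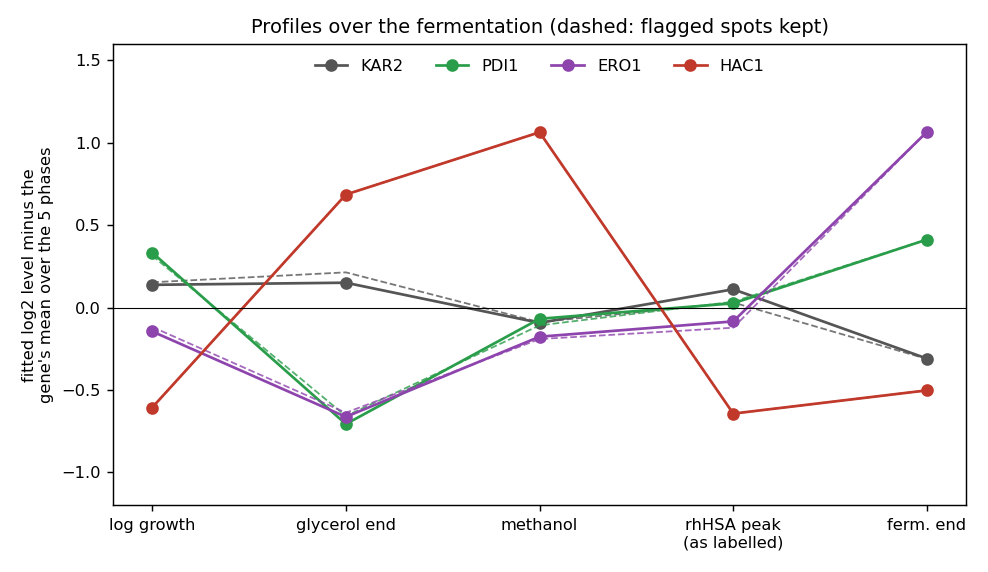
Fitted log2 level of each gene minus its own mean over the 5 phases (vertical axis) by phase (horizontal axis), with solid lines for the fit without flagged spots and dashed lines with them kept. ERO1 and PDI1 are both lowest at the end of glycerol feeding. ERO1 is highest at the end of fermentation, where PDI1 was not told apart from logarithmic growth. HAC1 is highest on methanol, and KAR2 spans 0.46 log2 units, or 0.53 with flagged spots kept.

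Among the 4 genes, PDI1 and ERO1 had the closest profiles, with a root mean square difference of 0.37 between their fitted phase levels, each centred on its own mean, over 5 phases. Of the 15 arrays, PDI1 lacked a value on 2 and KAR2 on 4, and with flagged spots kept, which fills them, the difference between PDI1 and ERO1 was 0.36 and again the smallest of the 6 pairs. HAC1 lay farthest from ERO1, at 1.13, and from PDI1, at 1.04, while its distance from KAR2 was 0.75. Many other tags were closer to each of these genes than the genes were to one another. PDI1 ranked 221 of 5023 by likeness to ERO1, and ERO1 ranked 533 by likeness to PDI1. As a description, the tag most like HAC1 was PAS_chr1-4_0391 (0.072), followed by PAS_chr1-1_0186 (0.13) and PAS_chr2-1_0340 (0.15). The 3 tags nearest to ERO1 were PAS_chr1-4_0433 (0.097), PAS_chr3_1091 (0.12) and PAS_chr1-1_0135 (0.12). For PDI1 they were PAS_chr1-3_0106 (0.067), PAS_chr1-4_0385 (0.12) and PAS_chr2-1_0421 (0.13), and for KAR2 PAS_chr2-2_0409 (0.034), PAS_chr4_0549 (0.044) and PAS_chr2-1_0690 (0.047). All distances are root mean square differences in log2 units. KAR2 has near neighbours at smaller distances than the others, and its own range was also the smallest.

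The authors' deposited table of processed log2 values holds ERO1 and HAC1 but not KAR2 and PDI1, which each lacked a value on at least 1 array once flagged spots were left out. Column medians there were 12.6 to 12.7. In the authors' deposited table HAC1 had 9.75, 9.87 and 9.94 in logarithmic growth, 11.5, 11.3 and 11.3 at the end of glycerol feeding and 11.8, 12.0 and 11.7 after methanol adaptation. It had 9.93, 10.1 and 9.73 at the labelled peak and 10.56, 10.64 and 10.71 at the end of fermentation in the authors' deposited table. There the end of fermentation lay above all arrays of logarithmic growth and of the labelled peak. In the scaling to the 75th percentile it lay above their scan 1 arrays alone, at -4.56 and -4.61. The scan 2 arrays of those phases lay above it in that scaling. ERO1 in the authors' deposited table had 14.4, 14.3 and 14.3 in logarithmic growth, 13.7, 13.9 and 13.8 at the end of glycerol feeding and 14.3, 14.3 and 14.2 after methanol adaptation. It had 14.3, 14.3 and 14.3 at the labelled peak and 15.7, 15.7 and 15.8 at the end of fermentation in the authors' deposited table. For this gene the lowest and the highest phase were the same as in the scanner values.

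**Figure D5:**
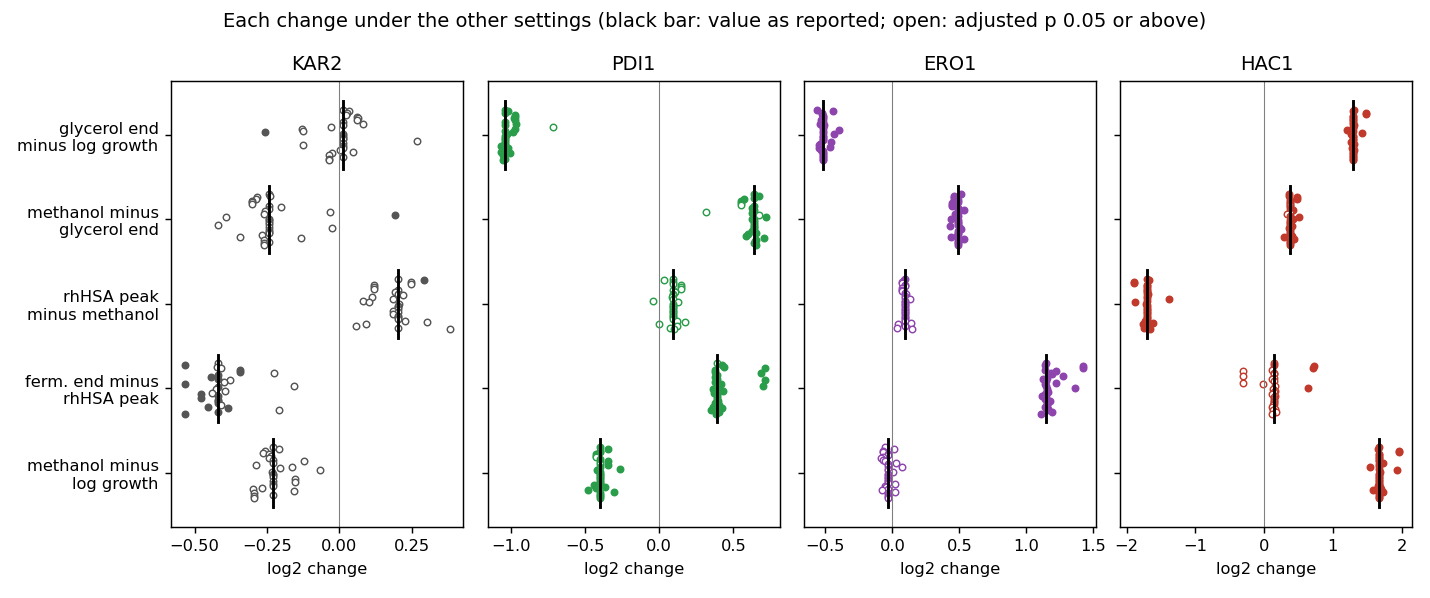
Fitted log2 change of each gene (horizontal axis) in 5 comparisons (vertical axis) under each other setting tried, as points, filled where the limma adjusted p was below 0.05, with a black bar at the value as reported. Where the change passed as reported, the points of each gene stay on 1 side of 0. For KAR2 at the last step they run from -0.54 to -0.16. Where it did not pass as reported, points of KAR2 cross 0 at the first 2 steps, from -0.26 to 0.27 at the first. Those of HAC1 cross it at the last step (-0.31 to 0.72) and those of PDI1 at the third (-0.041 to 0.17). ERO1 crosses it between methanol and logarithmic growth (-0.088 to 0.074). Some of these points did pass, 1 for KAR2 at the first step, 2 at the second and 4 for HAC1 at the last. Those of PDI1 and ERO1 did not.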

How the data were processed

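Per the labels, Cy3-labelled cRNA of a single fermentor and phase went on each array. Spot intensity in the deposited files was background-subtracted within each array by Agilent Feature Extraction, version 10.7.3.1 per the file headers and 9.1 per the submitters' processing notes. The authors also deposited log2 values for 3915 of 5039 probes, 1124 being absent, of which 1033 lacked a value on some array here once flagged spots were left out. Set against the scanner values of the same array, r was 0.983 to 0.988 for its columns. Its scaling and centring are not given in the sources used here.

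Log2 of the processed signal minus the 75th percentile of the array was averaged over the spots of a probe that were not flagged, and 2.26% of probe values were then missing. A tag was tested if at least 2 of 3 spots stood well above background throughout at least 1 phase, which kept 5024 tags and all 4 members. With limma 3.58.1 (R 4.3.3, jsonlite 2.0.0 for input), 1 model held the 15 arrays, with terms for the 5 phases and, as a fixed block, the scan. Each of the 10 pairs of phases was fitted as its own coefficient, so that SEs hold where a tag lacks arrays. P-values were moderated by eBayes and adjusted by Benjamini-Hochberg over all tags within a pair, with a threshold of 0.05. The F-test compared fits with and without phase. The procedure was tested on simulated data with independent noise on each array. That test does not cover near-identical arrays or a culture sampled more than once. The number of arrays limits the precision, and 98.7% to 99.96% of probes per array were well above background.

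Fermentor numbers in the labels recur at each phase, so numbers were taken to pair samples by culture. Deviations of same-numbered arrays from the phase means correlated in the first 4 phases, with r of 0.941 to 0.954 (fermentor 1), 0.795 to 0.917 (fermentor 2) and 0.408 to 0.901 (fermentor 3). With the end of fermentation r was -0.051 to 0.052, 0.176 to 0.257 and -0.314 to -0.196. Fermentor 1 coincides with scan 1 in the first 4 phases, and fermentors 2 and 3 with scan 2. The scan difference is therefore part of the deviations of all 3 fermentors in these phases. For that reason these r cannot tell a shared culture from a shared scan. Sampling times in the labels' protocol are not assigned to phases, and none are used.

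The members and lists were chosen with earlier results of these data known. The rule for named genes took the 4 members, a list of pathway genes given by symbol, and the 3 tags nearest to each member. The reference table (5305 rows, another assembly) gave 0 matches for the tags, so the pathway list, probe sequences and coordinates were not analysed here. Alternatives covered blocks, scaling, background correction, flagged spots, near-identical arrays, array weights, subsets of arrays and the authors' values. Because the files used have no mean signal, normexp was run on the median signal, an alternative chosen after seeing the data, as were the fits that combine kept flagged spots with averaging or with no scan block, and kept flagged spots in the differences from KAR2 and in the profile distances.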

Additional observations from a re-analysis of the deposited data

How the results depend on the processing

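HAC1 kept direction and call in every alternative run at the first step, the third step and between methanol and logarithmic growth. Its change ran from 1.21 to 1.48, from -1.90 to -1.39 and from 1.54 to 1.97 there. At the third step its SE was 0.28 without a scan term and 0.20 with normexp. ERO1 kept both direction and call at the first, second and last steps. Exceptions among the other results at these comparisons follow, as log2 changes, and their cause was not tested. Without a scan term, KAR2 was -0.029 at the first step, and calls were lost for PDI1 at the first (-0.72) and second step (0.32) and between methanol and logarithmic growth (-0.40), for HAC1 at the second (0.38) and for KAR2 at the last (-0.38). HAC1 at the last step was then -0.31. With flagged spots kept as well, the values lost were 0.55 and -0.42 for PDI1, 0.38 for HAC1 and -0.23 for KAR2, with HAC1 -0.31 at the last step. With fermentor as a replicate block for the pairing and no scan block, HAC1 at the second step (0.38) and KAR2 at the last (-0.41) lost their call, HAC1 at the last step was -0.31, and HAC1 between the end of fermentation and logarithmic growth was -0.35, as without any block. For that pair of phases HAC1 passed at 0.69 with quantile normalization and at 0.79 and 0.78 in the authors' values with and without a scan block. Fermentor and scan as blocks together lost KAR2 at the last step (-0.42). The pairing changed no other call at the 4 steps and between methanol and logarithmic growth.

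Quantile normalization gave -0.26 and 0.19 for KAR2 at the first 2 steps, -0.041 for PDI1 at the third step, -0.16 for KAR2 and 0.64 for HAC1 at the last. It also gave 0.12 and 0.27 for KAR2 at the end of fermentation and the labelled peak against the end of glycerol feeding. With normexp, KAR2 was -0.13 at the first step and -0.40 at the last, HAC1 0.33 at the second and -0.023 at the last, ERO1 0.074 between methanol and logarithmic growth and KAR2 0.079 between the labelled peak and the end of glycerol feeding. ERO1 between methanol and logarithmic growth was 0.027 with median centring, 0.0065 on scan 2 alone and 0.013 with array weights, which did not converge fully. Array weights also passed KAR2 (0.29) and ERO1 (0.090) at the third step and HAC1 (0.14) at the last, and KAR2 between the end of fermentation and methanol adaptation (-0.24), and gave 0.052 for KAR2 between the labelled peak and the end of glycerol feeding. The authors' values gave 0.72 for HAC1 at the last step with and without a scan block. With only the arrays of the 2 phases, KAR2 at the first step was -0.12 and PDI1 at the second 0.67, and without the arrays labelled rhHSA peak KAR2 at the first step was -0.036. Averaging all near-identical arrays lost the last step for KAR2 (-0.42) and PDI1 (0.39). Flagged spots kept passed KAR2 at the second step (-0.30), though not with logarithmic growth arrays 2 and 3 averaged or without a scan term, and turned PDI1 minus KAR2 at the third step to 0.024. The range of KAR2 over the phases passed with scan as a random block (0.46), quantile normalization (0.27), array weights (0.54) and flagged spots kept, with or without averaging logarithmic growth arrays 2 and 3 (0.53 both).

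Between the labelled peak and logarithmic growth, near 0 for 3 genes, signs turned for KAR2 (0.068 with median centring, 0.016 quantile, 0.086 with 6 arrays, 0.084 array weights), ERO1 (-0.0048 with flagged spots kept, -0.019 with averaging) and HAC1 (0.032 median centring, 0.049 quantile, 0.15 normexp, 0.066 in the authors' values). PDI1 lost its call there in 6 of 31 alternatives (-0.31 to -0.24, adjusted p up to 0.391). PDI1 also lost it between the labelled peak and the end of glycerol feeding without a scan term (0.41), and between the end of fermentation and methanol adaptation with only the arrays of these phases (0.45). KAR2 between the end of fermentation and the end of glycerol feeding lost it in 9 alternatives, and between the end of fermentation and logarithmic growth gained one in 10. Leaving out 1 array gave -0.12 to 0.27 for KAR2 at the first step, -0.0044 to 0.17 for PDI1 at the third step, 0.058 to 0.38 for KAR2 at the third step and -0.53 to -0.21 at the last and -0.080 to 0.023 for ERO1 between methanol and logarithmic growth. Between the labelled peak and logarithmic growth it gave -0.24 to 0.086 for KAR2 and -0.083 to 0.0031 for HAC1, for KAR2 between the labelled peak and the end of glycerol feeding -0.24 to 0.16, and for its range over the phases 0.43 to 0.72. Counts of tags called moved by over 1.5 times without a scan term, from 3637 to 2179, 3180 to 1427 and 3739 to 2435 at the first 3 steps, 2906 to 1097 between the labelled peak and logarithmic growth and 3440 to 1915 between the labelled peak and the end of glycerol feeding, with close values when flagged spots were kept (2205, 1443, 2469, 1116 and 1932), and to 1886 on scan 2 alone for the labelled peak against logarithmic growth.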
